A study of Mus musculus with 21 samples.

Results

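The proteasome genes of the lung were taken as every gene symbol of the form Psma, Psmb, Psmc, Psmd or Psme followed by a number, which gave 43 genes of 23238 distinct symbols counted. They were measured by 3′ end RNA sequencing in lung tissue of 21 C57BL/6 mice, with 1 library per animal and 3 animals in each of 7 groups. Each animal had 50 µL instilled into the trachea daily over 14 days, and lung RNA was taken on day 15 after bronchoalveolar lavage. The groups were saline (the propylene glycol control), propylene glycol (PG, an e-cigarette solvent) at 826 and 1100, ethanol at 10% (the vitamin E acetate control), and vitamin E acetate (VEA, an oily additive) at 3.12, 6.25 and 12.5. The doses carry the unit mg/kg on the samples and mg/mL in the series design, with identical numbers, so no unit is printed with them. The strain was the same in all 7 groups, and the labels give no transgene, sex or age. What VEA was given in is not stated in the labels, so a VEA value is always a difference from the 10% ethanol animals.

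The proteasome is the barrel-shaped protease that degrades proteins tagged with ubiquitin. Its 20S core is built of 2 outer rings of alpha subunits (Psma genes) and 2 inner rings of beta subunits (Psmb genes), and only 3 kinds of beta subunit cut peptide bonds. The 19S cap, made of ATPases (Psmc) and non-ATPase subunits (most Psmd genes), binds and unfolds substrates. The activators PA28 (Psme1, Psme2, Psme3) and PA200 (Psme4) open the core instead. In cells exposed to interferon, and in many immune cells, the cutting subunits Psmb5, Psmb6 and Psmb7 are replaced during assembly by Psmb8, Psmb9 and Psmb10. That form is the immunoproteasome, known for making peptides that are loaded on MHC class I molecules.

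Grouped by symbol alone, the 43 genes fell into 7 alpha ring, 7 constitutive beta ring, 5 immuno or tissue-specific, 6 19S ATPase, 14 19S non-ATPase and 4 activator genes. Of these, 42 passed the filter on low counts and were tested. Psmb11, the beta subunit of the thymus, had 1 to 15 counts per library and was not tested. Psma8, the alpha subunit of the testis, passed the filter with 0 to 18 counts per library and a mean level of 0.518 CPM over the 21 libraries. The thymic epithelial markers Psmb11 and Foxn1 together summed to 0.108 to 1.305 CPM. Of the male germ cell genes Psma8, Sycp3 and Ddx4, 2 were tested, and the meiotic gene Sycp3 fell in PG 1100 against saline (-0.61, edgeR adjusted p = 0.0391), with no other call in that list. CPM is the gene's count relative to the library's total, in the usual unit, with totals scaled by the TMM method. The other 41 genes had 170 to 3592 counts in each library. Levels are compared between groups and not between genes, and the ratios of subunit pairs below are read only for how they differ between groups.

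Total counts were 8778028 to 11783151 per library, and the 43 genes together took 0.3503% to 0.4896% of them. Animals of 1 group differed by far more than counting error, with a chi-square per degree of freedom of 8.14 to 40.48, so the tests rest on the spread between animals. A gene was called when its adjusted p in edgeR's quasi-likelihood test (Benjamini-Hochberg over all 14727 genes tested) was below 0.05. Saline animal 8, ethanol animal 13 and VEA 6.25 animal 65 had the fewest detected genes, 14843 to 15157 against 15446 to 15992 in the other libraries. Lung identity was plain in every library, with the 6 alveolar epithelial markers (among them the surfactant genes Sftpc and Sftpa1) summing to 22390 to 47930 CPM.

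The immunoproteasome subunit Psmb8 rose in VEA 12.5 lungs. Its levels were 88.25, 84.98 and 86.53 CPM in the 3 ethanol animals, and 118.4, 147 and 130 CPM in the 3 VEA 12.5 animals. All 3 treated animals were above all 3 controls, and the log2 fold change was 0.61 ± 0.13 (SE, edgeR quasi-likelihood adjusted p = 0.0019, 95% interval 0.34 to 0.87). Psmb8 was at 101.2, 129 and 109.6 CPM in VEA 3.12 animals and at 98.21, 117.8 and 111.9 CPM in VEA 6.25 animals. Those 6 animals also lay above the ethanol range, but the differences did not pass the test (log2 fold change 0.39, adjusted p = 0.0789 by edgeR, and 0.34, adjusted p = 0.138). DESeq2 called the difference at VEA 3.12 (adjusted p = 0.036). In the saline animals it was at 76.56, 83.15 and 84.75 CPM, in PG 826 animals at 73.74, 78.55 and 89.05 CPM, and in PG 1100 animals at 87.73, 95.01 and 80.16 CPM. The PG ranges overlapped the saline range, with log2 fold changes of -0.02 and 0.11 (adjusted p = 0.984 and 0.74 by edgeR). The VEA 12.5 effect exceeded the PG 1100 effect by 0.50 ± 0.19 on the log2 scale, with a 95% interval of 0.12 to 0.88, but this difference did not pass the test over all genes (edgeR adjusted p = 0.401). The rise in VEA 12.5 was called in each of the 13 alternative fits, with adjusted p of 6.61e-05 to 0.0211. Leukocyte markers were also higher in these lungs, with the values given at the end, and their part in the Psmb8 rise was not tested.

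Psmb9 and Psmb10, the other immunoproteasome cutting subunits, were not called in any of the 9 comparisons. Psmb9 was at 46.21, 43.52 and 38.3 CPM in ethanol animals, at 50.8, 68.89 and 58.9 CPM in VEA 3.12 animals, at 45.87, 47.66 and 52.88 CPM in VEA 6.25 animals and at 44.67, 69.22 and 41.9 CPM in VEA 12.5 animals. The highest VEA group was the lowest dose, where no animal overlapped the ethanol range (log2 fold change 0.48 ± 0.20, edgeR adjusted p = 0.166), and 1 VEA 12.5 animal stood above its 2 group mates. Psmb9 was at 40.94, 54.3 and 36.1 CPM in saline animals, at 41.75, 28.97 and 55.41 CPM in PG 826 animals and at 46.67, 37.21 and 36.18 CPM in PG 1100 animals, overlapping one another. Psmb10 was at 52.58, 56.26 and 50.06 CPM in ethanol animals, at 65.07, 65.88 and 57.35 CPM in VEA 3.12 animals, at 58.71, 57.08 and 65.65 CPM in VEA 6.25 animals and at 58.63, 73.36 and 65.21 CPM in VEA 12.5 animals. All 9 VEA animals were above the ethanol range for Psmb10, yet the log2 fold changes of 0.25, 0.19 and 0.31 did not pass the test (edgeR adjusted p = 0.374, 0.522 and 0.188). In saline animals Psmb10 was at 59.89, 60.39 and 52.64 CPM, in PG 826 animals at 56.98, 52.89 and 59.36 CPM and in PG 1100 animals at 46.57, 58.47 and 66.13 CPM, again overlapping.

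**Figure D1:**
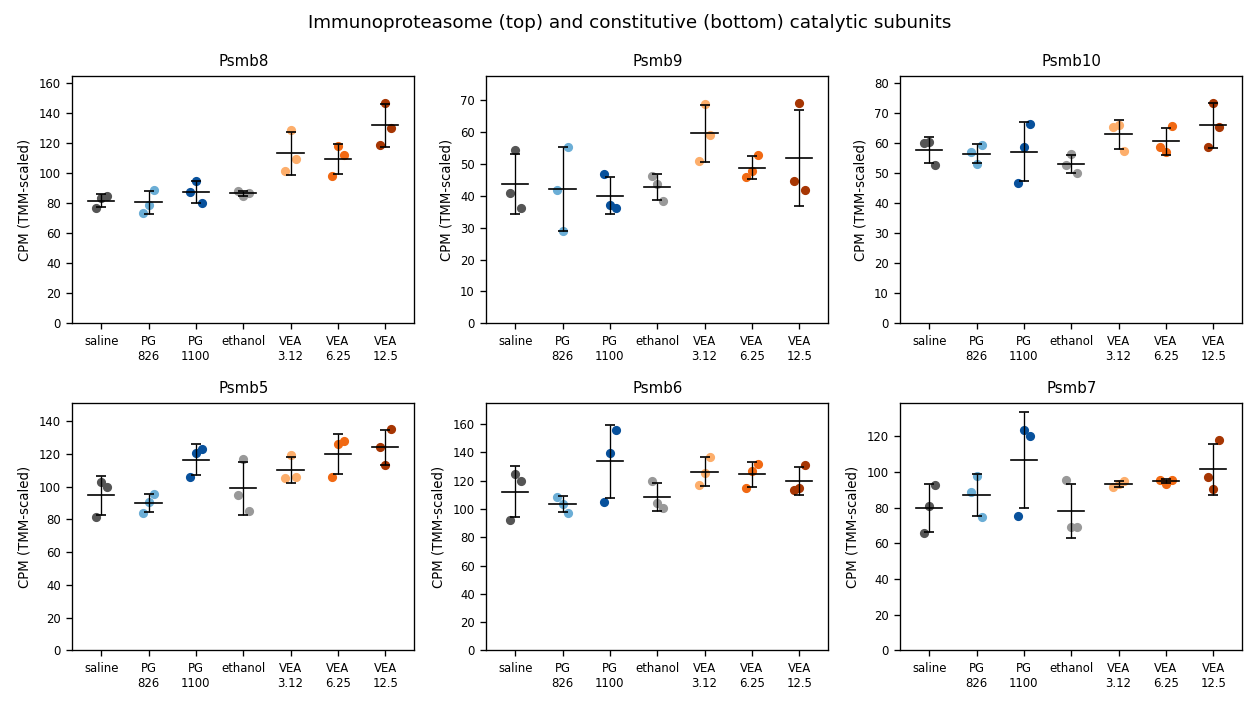
Level in CPM (vertical axis, from 0) of the immunoproteasome subunits Psmb8, Psmb9 and Psmb10 (top) and the constitutive subunits Psmb5, Psmb6 and Psmb7 (bottom) in the 7 groups (horizontal axis). Points are the 3 animals of a group, lines the mean and bars the SD. Psmb8 in the 3 VEA 12.5 animals (118.4 to 147 CPM) lies above all ethanol animals (84.98 to 88.25 CPM), while the other genes show smaller shifts that did not pass the test.

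The constitutive partners were not called either. Psmb5, which carries the chymotrypsin-like activity, was at 94.84, 116.6 and 85.34 CPM in ethanol animals, at 105, 119 and 105.9 CPM in VEA 3.12 animals, at 106.1, 125.7 and 128 CPM in VEA 6.25 animals and at 123.9, 113.1 and 134.8 CPM in VEA 12.5 animals. It overlapped the ethanol range at all 3 doses, and at VEA 12.5 the log2 fold change was 0.32 ± 0.14 (edgeR adjusted p = 0.138). With the 3 libraries of fewest detected genes left out it passed (0.47, adjusted p = 0.0486 by edgeR). Psmb5 was at 81.1, 102.8 and 99.83 CPM in saline animals, at 84.04, 90.81 and 95.19 CPM in PG 826 animals and at 105.6, 120.3 and 123 CPM in PG 1100 animals. The PG 1100 animals were all above the saline range, with a log2 fold change of 0.30 ± 0.14 (edgeR adjusted p = 0.206).

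Psmb6, the caspase-like subunit, was at 119.8, 104.1 and 101 CPM in ethanol animals, at 116.9, 125.4 and 137 CPM in VEA 3.12 animals, at 114.8, 126.8 and 132.1 CPM in VEA 6.25 animals and at 113.2, 114.8 and 131.1 CPM in VEA 12.5 animals. It was at 91.95, 124.8 and 120.1 CPM in saline animals, at 108.7, 103.5 and 97.38 CPM in PG 826 animals and at 105.2, 139.3 and 156.2 CPM in PG 1100 animals. Every dose group of Psmb6 overlapped its control. Psmb7, the trypsin-like subunit, was at 95.49, 69.11 and 69.16 CPM in ethanol animals, at 91.43, 92.97 and 94.85 CPM in VEA 3.12 animals, at 95.41, 93.32 and 95.28 CPM in VEA 6.25 animals and at 96.82, 90.1 and 117.6 CPM in VEA 12.5 animals. Ethanol animal 12 stood above the other ethanol animals and reached the VEA range. Psmb7 was at 65.91, 80.96 and 92.34 CPM in saline animals, at 88.42, 97.86 and 74.57 CPM in PG 826 animals and at 75.36, 123.7 and 120.1 CPM in PG 1100 animals, where animal 27 lay apart from animals 28 and 30. Its log2 fold change in PG 1100 against saline was 0.42 ± 0.16 (edgeR adjusted p = 0.125), and without animal 27 it was 0.61 (adjusted p = 0.0101 by edgeR).

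Setting each immuno subunit against its partner within a library showed no shift that passed a test. The ratio of Psmb8 to Psmb5 counts was 0.9306, 0.7287 and 1.014 in ethanol animals, 0.9638, 1.084 and 1.035 in VEA 3.12 animals, 0.9257, 0.9375 and 0.8739 in VEA 6.25 animals and 0.9558, 1.3 and 0.9644 in VEA 12.5 animals. Animal 68 of VEA 12.5 had the highest ratio and ethanol animal 13 the lowest. Over the 9 VEA animals the mean log2 ratio exceeded that of the 3 ethanol animals by 0.18 (2-sided exact permutation test p = 0.227, adjusted p = 0.619 over 6 such tests). Without ethanol animal 13 the difference was 0.04, and without ethanol animal 14 it was 0.28. In saline animals this ratio was 0.944, 0.8092 and 0.8489, in PG 826 animals 0.8774, 0.8649 and 0.9354, and in PG 1100 animals 0.8307, 0.7901 and 0.6516, a mean log2 difference of -0.08 over both PG doses (exact permutation p = 0.571, adjusted p = 0.619). It ranged from -0.13 without saline animal 8 to -0.01 without PG 1100 animal 30.

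The ratio of Psmb9 to Psmb6 was 0.3793 to 0.418 in ethanol animals and ranged from 0.3196 to 0.603 in VEA 12.5 animals, a mean log2 difference of 0.11 over the 9 VEA animals (exact permutation p = 0.518, adjusted p = 0.619), or 0.05 without VEA 12.5 animal 68. For PG it was 0.3006 to 0.4453 in saline animals, 0.2798 to 0.569 at 826 and 0.2316 to 0.4435 at 1100 (difference -0.17, exact permutation p = 0.619, adjusted p = 0.619), with differences from -0.35 without saline animal 10 to -0.05 without PG 1100 animal 30. Psmb10 to Psmb7 was 0.5506 to 0.8141 in ethanol animals and 0.5544 to 0.8142 at VEA 12.5, with a difference of -0.07 over all VEA animals (exact permutation p = 0.564, adjusted p = 0.619). This difference was -0.23 without ethanol animal 12 and changed sign to 0.05 without ethanol animal 13. For PG the Psmb10 to Psmb7 ratio was 0.5701 to 0.9087 in saline animals, 0.5404 to 0.7961 at 826 and 0.4727 to 0.6179 at 1100 (difference -0.29, exact permutation p = 0.214, adjusted p = 0.619), or -0.13 without saline animal 6 and -0.47 without saline animal 10. The smallest p these tests can give is 0.00909 for VEA and 0.0238 for PG, and a shift in 1 pair alone at that p would not pass after adjustment over the 6 tests. The ratios are descriptive of transcripts and not of assembled proteasomes.

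**Figure D2:**
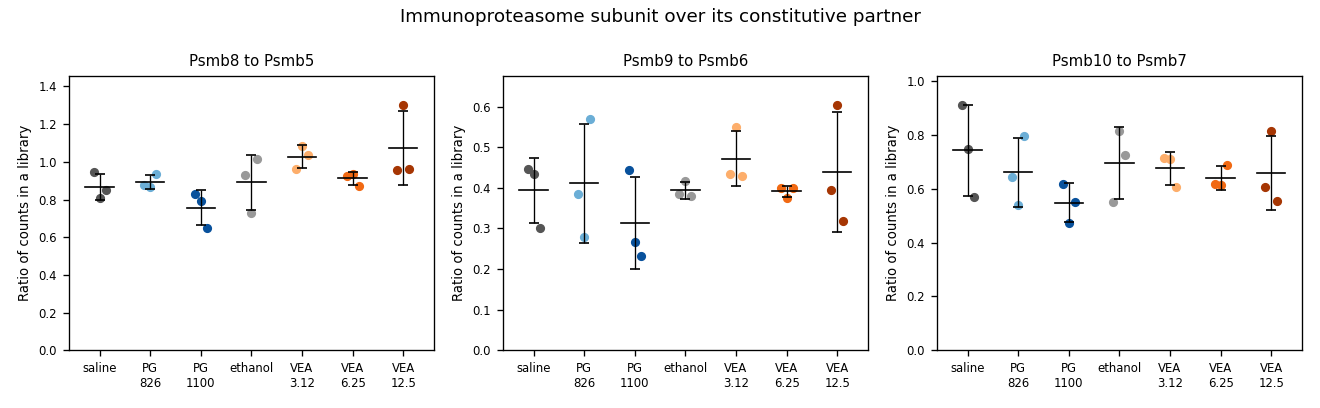
Ratio of the counts of an immunoproteasome subunit to its constitutive partner in the same library (vertical axis, from 0), for the 7 groups (horizontal axis). Points are the 3 animals, lines the mean and bars the SD. Each dose group overlaps its control group except VEA 3.12 for Psmb9 to Psmb6 (0.43 to 0.5493, against 0.3793 to 0.418 in ethanol animals), and the highest Psmb8 to Psmb5 ratio, 1.3, belongs to 1 VEA 12.5 animal.

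Psmb8 lies on chromosome 17 (34197721 to 34201454, plus strand, GRCm38) beside the peptide transporter gene Tap1 (34187553 to 34197225, plus strand), with Psmb9 (34181987 to 34187764, minus strand) on its other side. The 5′ ends of Psmb9 and Tap1 overlap on opposite strands. Genes on the opposite strand are annotated over the last part of Psmb8 (Gm20496), Psmb10 (Gm16156) and Psmb7 (Nek6, itself counted), and the strand setting of the counting is not known, so reads of these pairs may not be told apart. Psmb10 is on chromosome 8 (105935735 to 105938444), Psmb5 on 14 (54614119 to 54618022), Psmb6 on 11 (70525367 to 70527858) and Psmb7 on 2 (38588036 to 38644087). The sequences before RefSeq starts of Psmb8, of its partner Psmb5 and of Psma6, called at all 3 VEA doses below, are shown because these genes carry the results. RefSeq's promoter windows (GRCm38.p6) held 36 of the 43 members, and 3 response motifs and the CCAAT box were searched on both strands in the 250 bases before each start. These windows and motifs were chosen after the values were seen. Capitals mark matches to the interferon-type GAAANNGAA, the STAT-type TTCNNNGAA or TGANNNNGC, a loose form of the antioxidant element, and no marked match overlapped another. The Psmb8 stretch is 30 bases (chr17:34198088-34198117, plus strand) because its whole window lies in annotated exons. The Psmb5 stretch is chr14:54618023-54618245, minus strand. Psma6 has 2 annotated starts, and the stretches before them are chr12:55383972-55384221 and chr12:55398575-55398774, both plus strand. The second stretch ends 50 bases before its start.
Psmb8: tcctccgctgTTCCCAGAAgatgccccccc
Psmb5: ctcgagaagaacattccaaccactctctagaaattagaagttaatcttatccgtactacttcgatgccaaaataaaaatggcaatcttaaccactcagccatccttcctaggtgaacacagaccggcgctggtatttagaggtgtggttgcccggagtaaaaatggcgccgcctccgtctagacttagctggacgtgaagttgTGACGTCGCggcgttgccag
Psma6 outer start: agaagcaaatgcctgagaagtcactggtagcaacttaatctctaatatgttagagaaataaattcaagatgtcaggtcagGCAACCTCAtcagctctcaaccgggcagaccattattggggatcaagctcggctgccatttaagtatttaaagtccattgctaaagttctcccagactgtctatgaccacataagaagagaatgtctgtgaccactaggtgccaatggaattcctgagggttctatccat
Psma6 inner start: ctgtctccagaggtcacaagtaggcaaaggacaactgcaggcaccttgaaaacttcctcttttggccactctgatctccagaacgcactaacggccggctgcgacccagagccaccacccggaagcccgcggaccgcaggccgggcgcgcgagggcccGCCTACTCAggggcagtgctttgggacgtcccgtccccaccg
The TTCNNNGAA match of Psmb8 begins 97 bases before the RefSeq start that this window belongs to, which lies inside the Psmb8 gene as given above from GENCODE, and Psmb8 was the only 1 of the members' 39 windows with that motif, which 7.02% of all 32851 windows hold. GAAANNGAA was in 3 of the 39 windows (Psmb3, Psmd4 and Psmd9) and in 7.13% of all windows. TGANNNNGC was in 15 of the 39 and in 35.2% of all, and CCAAT in 14 of the 39 and in 33.85% of all. These are matches of letters and say nothing of whether a factor binds there.

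Among the alpha ring genes, which form the gate of the core, Psma6 rose at all 3 VEA doses. It was at 64.87, 65.98 and 74.98 CPM in ethanol animals, at 109.4, 115.5 and 94.96 CPM at VEA 3.12, at 85.59, 98.14 and 120.8 CPM at 6.25 and at 95.27, 92.05 and 107.7 CPM at 12.5. No VEA animal overlapped the ethanol range, and the highest mean was at the lowest dose. The log2 fold changes were 0.64 ± 0.14, 0.56 ± 0.14 and 0.52 ± 0.14 (edgeR adjusted p = 0.00437, 0.0126 and 0.0134), and these 3 comparisons share the ethanol animals. The call at VEA 3.12 held in all 13 alternatives. At VEA 6.25 it was lost without animal 65 (0.42, adjusted p = 0.132 by edgeR), without ethanol animal 12 (0.53, adjusted p = 0.066), without ethanol animal 13 (0.54, adjusted p = 0.062) and without the 3 libraries of fewest detected genes (0.39, adjusted p = 0.286). At VEA 12.5 it was lost without animal 70 (0.46, adjusted p = 0.0815 by edgeR), without ethanol animal 12 (0.48, adjusted p = 0.0669) and without ethanol animal 13 (0.49, adjusted p = 0.0623). Psma6 was at 64.03, 72.32 and 71.81 CPM in saline animals, at 63.22, 84.72 and 75.61 CPM in PG 826 animals and at 80.49, 85.38 and 92.08 CPM in PG 1100 animals. The PG 1100 animals were all above the saline range but the difference did not pass (log2 fold change 0.31, edgeR adjusted p = 0.207). Psma6 is on chromosome 12 (55384222 to 55418454, plus strand). The median of the 7 alpha ring genes was 0.32, 0.33 and 0.16 on the log2 scale at VEA 3.12, 6.25 and 12.5, and their summed level was 847.4 to 914.7 CPM in ethanol animals, 1108 to 1152 at VEA 3.12 and 900.8 to 1048 at VEA 12.5.

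In the constitutive beta ring Psmb1, a subunit that does not cut, rose in 2 comparisons. The ethanol animals had 180.6, 185.1 and 172.7 CPM and the VEA 6.25 animals 212.9, 225.5 and 286.3 CPM, where animal 65 stood highest. The log2 fold change was 0.43 ± 0.13 (edgeR adjusted p = 0.0493). It no longer passed in 10 of 13 alternatives, among them those without ethanol animal 12, 13 or 14 (adjusted p = 0.121, 0.103 and 0.143 by edgeR) and without VEA 6.25 animal 64 or 65 (0.0799 and 0.334), and 0.29 was the lowest value. Psmb1 was at 189.4, 192.9 and 169.5 CPM in PG 826 animals and at 220.1, 260.5 and 276.7 CPM in PG 1100 animals, with no overlap, and rose by a log2 fold change of 0.46 ± 0.13 (edgeR adjusted p = 0.0344). This call was lost without PG 826 animal 22, 23 or 25 (adjusted p = 0.0641, 0.0688 and 0.201 by edgeR) and without PG 1100 animal 28 or 30 (0.152 and 0.155). Against saline (167, 209.4 and 201 CPM) PG 1100 gave 0.39 ± 0.13 (edgeR adjusted p = 0.0671), which did not pass. It is on chromosome 17 (15475021 to 15499751).

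Of the 19S genes, Psmd8 rose in PG 1100 against PG 826 and Psmd3 in VEA 12.5 against ethanol, both non-ATPase subunits of the lid of the cap. Psmd8 was at 129.5, 140.7 and 129.5 CPM in PG 826 animals and at 157.2, 224.7 and 217.6 CPM in PG 1100 animals. The groups did not overlap and animal 27 was the lowest of PG 1100 (log2 fold change 0.58 ± 0.13, edgeR adjusted p = 0.0051). Without animal 28 the call was lost (0.49, adjusted p = 0.0709 by edgeR), and saline animals, at 130.2, 153.3 and 174.2 CPM, overlapped both doses (PG 1100 against saline 0.39, adjusted p = 0.069). Psmd8 is on chromosome 7 (29174188 to 29180701). Psmd3, on chromosome 11 (98682554 to 98695979), had 67.5, 72.24 and 75.2 CPM in ethanol animals, against 108.2, 96.19 and 92.39 CPM in VEA 12.5 animals, with no overlap and a log2 fold change of 0.47 ± 0.15 (edgeR adjusted p = 0.0362). It was lost when any 1 of the 6 animals was left out, with log2 fold changes of 0.41 to 0.52 and adjusted p of 0.0511 to 0.146 by edgeR. The 6 ATPase genes, the motor of the cap, had medians of 0.10, 0.02 and 0.00 on the log2 scale over the VEA doses, against 0.11, 0.08 and 0.14 for the 14 non-ATPase genes, and none of the ATPases was called.

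**Figure D3:**
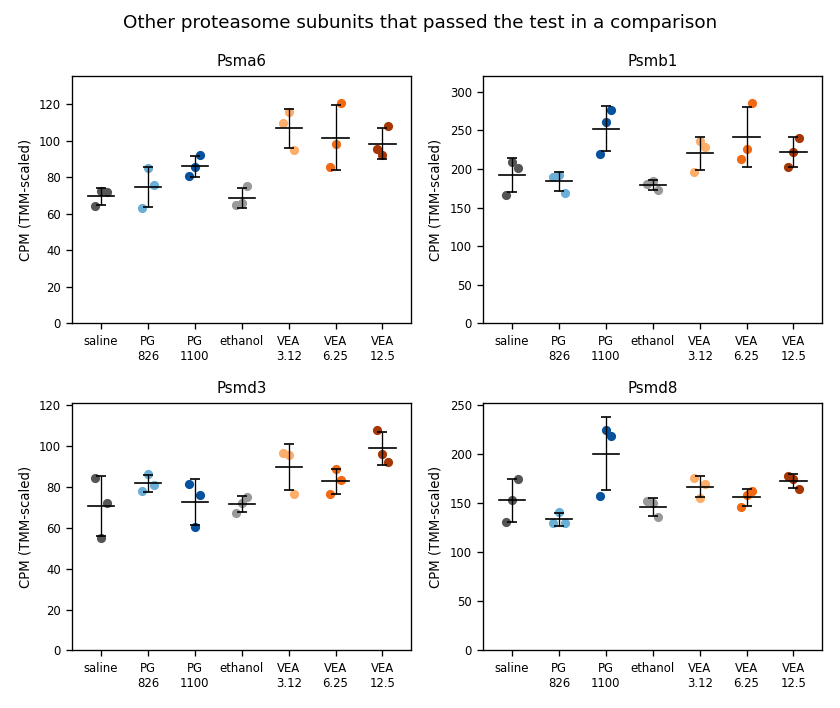
Level in CPM (vertical axis, from 0) of Psma6, Psmb1, Psmd3 and Psmd8, the called genes other than Psmb8, in the 7 groups (horizontal axis). Points are the 3 animals, lines the mean and bars the SD. Psma6 in all 9 VEA animals (85.59 to 120.8 CPM) lies above the ethanol animals (64.87 to 74.98 CPM), and 2 of 3 PG 1100 animals are the highest for Psmd8.

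The activator PA28 is a ring of Psme1 and Psme2, both known as interferon-responsive. Psme1, on chromosome 14 (55578123 to 55581529), was at 118.8, 134.3 and 92.14 CPM in ethanol animals, at 119.1, 167.1 and 131.4 CPM at VEA 3.12, at 117.4, 132.9 and 134.9 CPM at 6.25 and at 142.6, 148.3 and 151.8 CPM at 12.5. The VEA 12.5 animals were all above the ethanol range, but the log2 fold change of 0.36 ± 0.14 did not pass (edgeR adjusted p = 0.109). It passed without the 3 libraries of fewest detected genes (0.49, adjusted p = 0.0488) and in a fit of those groups alone (adjusted p = 0.0395). Psme1 was at 123.9, 135 and 111 CPM in saline animals, at 104.1, 120.8 and 122.6 CPM in PG 826 animals and at 131.2, 158.8 and 146.3 CPM in PG 1100 animals, overlapping saline.

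Psme2, on chromosome 14 (55587441 to 55591113), was at 47.64, 40.28 and 33.12 CPM in ethanol animals, at 65.84, 59.87 and 48.97 CPM at VEA 3.12, at 42.95, 48.7 and 55.65 CPM at 6.25 and at 44.74, 58.17 and 67.15 CPM at 12.5. The log2 fold changes at VEA 3.12 and 12.5, 0.53 and 0.49, did not pass (edgeR adjusted p = 0.0662 and 0.0684). Without ethanol animal 12 they did, at 0.67 and 0.63 (adjusted p = 0.0473 and 0.0425), and at VEA 12.5 also without animal 66 (0.64, adjusted p = 0.0272). Psme2 was at 50.61, 40.66 and 47 CPM in saline animals, at 42.18, 43.23 and 42.39 CPM in PG 826 animals and at 39.32, 59.47 and 56.11 CPM in PG 1100 animals. These values are uncertain because the retrogene symbol Psme2b, on chromosome 11, took 68.39% to 78.11% of the counts of both, and reads of near-identical copies may be split. Summing both, the log2 fold changes at VEA 3.12 and 12.5 were 0.36 and 0.30 (edgeR adjusted p = 0.131 and 0.193). Psme3 and Psme4 were not called in any comparison.

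**Figure D4:**
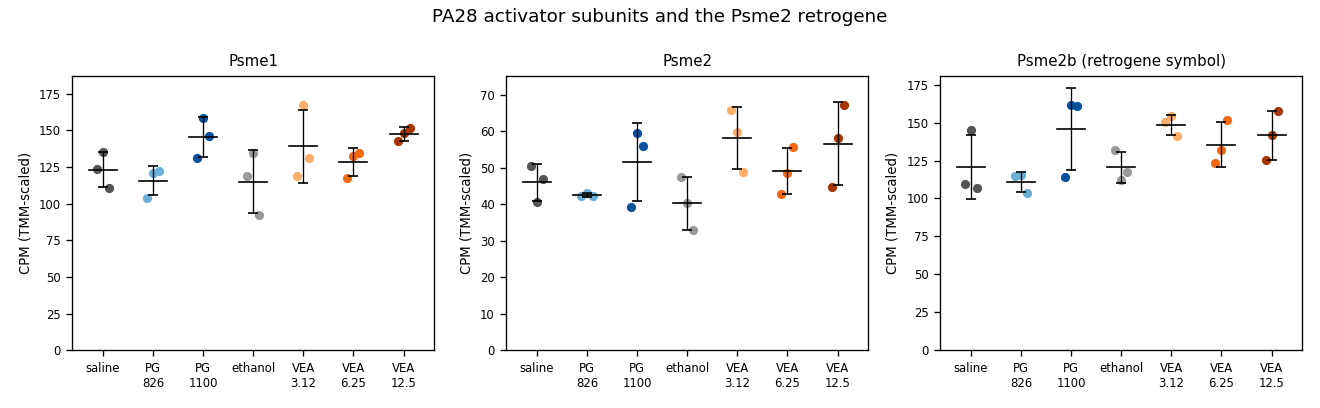
Level in CPM (vertical axis, from 0) of Psme1, Psme2 and the retrogene symbol Psme2b in the 7 groups (horizontal axis). Points are the 3 animals, lines the mean and bars the SD. Psme1 in VEA 12.5 animals (142.6 to 151.8 CPM) lies above the ethanol range (92.14 to 134.3 CPM), and Psme2b was at 103.3 to 161.3 CPM over the 21 libraries.

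Across the members, calls were few and none was a fall. In VEA 12.5 against ethanol 3 of 42 genes rose (7.14%), Psmb8, Psma6 and Psmd3, where 5.48% of all genes tested rose. A fit of those 2 groups alone called 9 of 41, where 7.92% of all genes rose. In VEA 6.25 against ethanol 2 of 42 rose (4.76%, against 3.51% of all genes), and in VEA 3.12 against ethanol 1 of 42 rose (2.38%, against 3.42%). In PG 1100 against PG 826 the count was 2 of 42 (4.76%, against 2.85%). In the fit of all 7 groups these shares are near those of all genes, so its counts alone are not a result about proteasome genes. Other fits of 2 groups alone called Psma4 and Psma6 of 41 at VEA 3.12 (4.25% of all genes rose). At VEA 6.25 such a fit called Psma6 and Psmb1 of 41 (4.16%). In PG 1100 against saline (1.91%) and against PG 826 (1.56%) no member was called. The larger count came from the VEA 12.5 fit only, so it is a description. The fits without 1 animal moved the PG counts most. Without PG 1100 animal 27, 16 of 42 members rose against PG 826 (4.83% of all genes rose) and 7 of 42 against saline (4.46% of all genes). Without animal 28 none rose in either comparison (0.844% and 2.17% of all genes rose).

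No member was called in 5 comparisons by edgeR. In PG 826 against saline (0.136% of all genes called in either direction) Psmb3 (-0.49, adjusted p = 0.246) and Psmd7 (-0.34, adjusted p = 0.447) had the smallest p, 5 members had an unadjusted p below 0.05, and DESeq2 and limma-voom also called none. Without saline animal 6, Psmb3 was called as a fall. In PG 1100 against saline (7.31% of all genes called) Psmd1 (0.38, adjusted p = 0.0607 by edgeR) and Psmb1 were closest, and 11 members had an unadjusted p below 0.05. There limma-voom called none, and DESeq2 called 3 (Psmb1, Psmd1 and Psmd8), where 5.07% of all genes rose. Leaving out saline animal 8 or 10 gave 1 call each, Psmd1 and Psmd8 (3.03% and 2.9% of all genes rose). In VEA 12.5 against VEA 3.12 (0% of all genes called) Psmd14 (0.41, adjusted p = 0.84) and Psmd7 (-0.27, adjusted p = 0.945) were first, with 1 member below an unadjusted 0.05. In ethanol against saline (0% of all genes called) Psmd5 (-0.32, adjusted p = 0.857) and Psma5 (-0.32, adjusted p = 0.859) were first, with 0 below an unadjusted 0.05. In the VEA 12.5 effect minus the PG 1100 effect (0.19% of all genes called), Psmb8 and Psme3 (0.60 ± 0.25, edgeR adjusted p = 0.506) were first, with 3 below an unadjusted 0.05. DESeq2 and limma-voom called no member in these last 3 comparisons. Of all 14727 genes, 1395, 2925, 801, 892 and 1162 had an unadjusted edgeR p below 0.05 in the 5 comparisons, in the order given. The shares in brackets are for adjusted p.

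The members leaned to one side more evenly than single calls show. The median log2 fold change of the 42 was 0.20, 0.17 and 0.17 at VEA 3.12, 6.25 and 12.5, with 36, 33 and 31 genes above 0, where the median of all genes was -0.01, 0.00 and -0.01. It was 0.14 in PG 1100 against saline (30 above 0) and 0.27 in PG 1100 against PG 826 (38 above 0), against 0.01 for all genes in both. In PG 826 against saline it was -0.10 (7 above 0), and in ethanol against saline -0.10 (8 above 0), against 0.00 for all genes in both. With the 3 libraries of fewest detected genes left out, the last 2 medians were -0.04 (19 above 0) and -0.07 (14 above 0). Without saline animal 6 they were -0.21 and -0.18, and without saline animal 8 both were -0.04. The PG 1100 median against saline was 0.08 without saline animal 6, 0.21 without saline animal 8 and 0.25 without PG 1100 animal 27. The saline animals differed widely among themselves, with a summed alpha ring level of 765.2 CPM in animal 6, 1084 in animal 8 and 1011 in animal 10. Genes whose treated animals all lay above all controls numbered 16 of 42 at VEA 3.12 (38.1%, against 12.9% of all genes), 12 at VEA 6.25 (28.6%, against 12%), 13 at VEA 12.5 (31%, against 15.3%), 7 at PG 1100 against saline (16.7%, against 10.1%) and 12 at PG 1100 against PG 826 (28.6%, against 9.93%). In PG 826 against saline 7 of 42 (16.7%) lay wholly below, against 6.67% of all genes. Wholly below ethanol were 0 of 42 at VEA 3.12, 3 at VEA 6.25 and 3 at VEA 12.5 (7.14% each). In PG 1100, 1 of 42 lay wholly below saline and 1 below PG 826 (2.38% each). The share of all genes was not computed for these lower counts at VEA and PG 1100. The members vary together within an animal and the VEA comparisons share their controls, so these are descriptions.

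**Figure D5:**
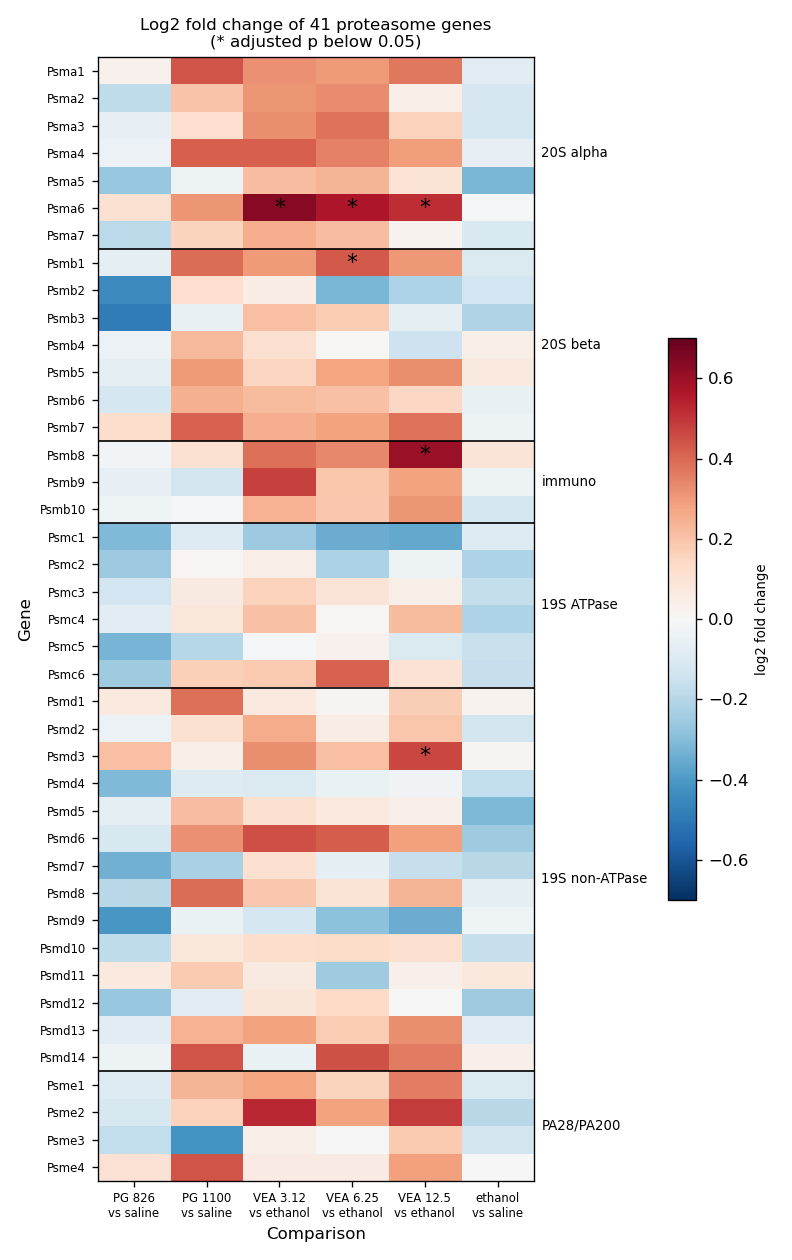
Log2 fold change (colour, red for higher and blue for lower) of 41 proteasome genes (vertical axis, by part of the complex) in 6 comparisons with controls (horizontal axis). Psma8, at a mean of 0.518 CPM, and the untested Psmb11 are not drawn, and stars mark an adjusted p below 0.05 in edgeR. Stars fall on Psma6 at all 3 VEA doses, Psmb1 at VEA 6.25, and Psmb8 and Psmd3 at VEA 12.5.

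The PG 1100 animals split within the group. Animal 27 had a summed alpha ring level of 946.1 CPM, a summed beta ring level of 778.6 CPM and a summed 19S ATPase level of 455.9 CPM. Animals 28 and 30 had 1232 and 1181, 1002 and 1052, and 581.9 and 667.8 CPM. The PG 826 animals were at 840.5 to 905.3, 688.1 to 750.9 and 468.4 to 505.3 CPM for the same sets. The summed level of Psmb8, Psmb9 and Psmb10 did not split in this way, at 181, 190.7 and 182.5 CPM in animals 27, 28 and 30. Its parts were less even. Animal 27 was the lowest of the group for Psmb10 (range 46.57 to 66.13 CPM) and the highest for Psmb9 (range 36.18 to 46.67 CPM). The 6 alveolar epithelial markers were at 30170 CPM in animal 27 and at 47930 and 42860 CPM in animals 28 and 30, and the part of this in the proteasome values was not tested.

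Genes that serve the proteasome were read from lists of related pathways. Of 13 tested assembly and regulation genes, Nfe2l1, the transcription factor that drives proteasome genes when proteasome activity is low, fell in PG 1100, from 119.3 to 138.8 CPM in saline animals to 84.71 to 114.2 CPM (log2 fold change -0.43 ± 0.13, edgeR adjusted p = 0.0421). It also fell against PG 826 (-0.51, adjusted p = 0.0168 by edgeR). Psmg4, an assembly chaperone, rose at VEA 3.12 (0.63, edgeR adjusted p = 0.0496) and 6.25 (0.71, adjusted p = 0.0228), and Shfm1, a small lid subunit, at 6.25 (0.55, adjusted p = 0.0246). None of the 13 was called in VEA 12.5 against ethanol, where 5.48% of all genes rose and 4.23% fell. In PG 1100, 1 of 13 fell against saline (3.23% of all genes fell) and 1 against PG 826 (2.71%). Rises numbered 1 of 13 at VEA 3.12 (3.42% of all genes rose) and 2 at VEA 6.25 (3.51%). With 13 genes, these counts are a description.

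MHC class I genes, which act downstream of the immunoproteasome, rose at VEA 12.5 in 5 of 14 cases (5.48% of all genes rose) and were not called in the other 8 comparisons. H2-K1, a class I heavy chain, went from 520.1 to 537 CPM in ethanol animals to 729.2 to 1109 CPM (log2 fold change 0.70 ± 0.14, edgeR adjusted p = 0.000975). H2-D1, another heavy chain, went from 667.9 to 808.3 CPM to 1017 to 1255 CPM (0.59, adjusted p = 0.00874). The transporter Tap1, neighbour of Psmb8 and Psmb9, went from 14.46 to 21.18 CPM to 28.95 to 48.02 CPM (1.08 ± 0.24, edgeR adjusted p = 0.00199). Tapbp, which links the transporter to class I, rose by 0.43 (adjusted p = 0.0314), and Pdia3, a chaperone of class I named after its value was seen, by 0.46 (adjusted p = 0.0344). The median of the 14 was 0.41 at VEA 12.5 and 0.22 in PG 1100 against saline. The count of 5 was 2 without VEA 12.5 animal 68, where 4.05% of all genes rose. It was 3 without ethanol animal 13 (4.04% of all genes), ethanol animal 14 (4.29%) or VEA 12.5 animal 66 (4.54%).

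Of 15 interferon genes 14 were tested, and 5 of them rose at VEA 12.5, where 5.48% of all genes rose. Ifng, the gene of interferon gamma, was too low to be tested. It had 0 counts in all PG 826, PG 1100 and VEA 3.12 animals and reached 0.89 CPM at most at VEA 12.5. Irf7, a regulator of type I interferon, went from 3.78 to 4.28 CPM in ethanol animals to 8.56 to 59.88 CPM (2.89 ± 0.50, edgeR adjusted p = 0.00046), a range set by wide spread among the 3 treated animals. Ifngr2, a chain of the interferon gamma receptor, rose by 0.73, Irf8 by 0.65 and the chemokine Cxcl9 by 2.19 (edgeR adjusted p = 0.00448, 0.00783 and 0.0195), and Irf9, named after its value was seen, by 0.52 (adjusted p = 0.0349). Irf1, an activator of immunoproteasome genes, fell in PG 1100 (-0.57 ± 0.15, adjusted p = 0.0138) and at VEA 6.25 (-0.55, adjusted p = 0.0228). Gbp2, an interferon-induced GTPase, also fell in PG 1100 (-0.61, adjusted p = 0.046). Ifngr2 rose at VEA 3.12 (0.59, adjusted p = 0.0401) and 6.25 (0.74, adjusted p = 0.00782). Cxcl9 rose in PG 1100 against PG 826 (3.91, edgeR adjusted p = 0.00364), from a level near the floor. It was at 0 to 0.52 CPM in PG 826 animals, with 6 counts in all, and at 1.00 to 5.87 CPM in PG 1100 animals. The saline animals, at 0.69 to 2.63 CPM, overlapped PG 1100. The count of 5 at VEA 12.5 was 2 without VEA 12.5 animal 68, where 4.05% of all genes rose. It was 3 without ethanol animal 13 (4.04% of all genes) or 14 (4.29%) or without the 3 libraries of fewest detected genes (4.46%).

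Markers of leukocytes and of other lung cells moved in the same lungs. The 6 general leukocyte markers summed to 349.6 to 402.9 CPM in ethanol animals and to 606.3 to 699.7, 604.2 to 695 and 726 to 840.1 CPM over the 3 VEA doses. Of the 6, 3, 4 and 6 rose, where 3.42%, 3.51% and 5.48% of all genes rose. They summed to 384.7 to 406.2 CPM in saline animals and to 429 to 709.5 CPM in PG 1100 animals, where 3 of 6 rose (4.09% of all genes rose). The 7 macrophage markers summed to 698.6 to 753 CPM in ethanol animals and 1441 to 1647 at VEA 12.5, and to 618.8 to 835.4 CPM in saline animals and 1208 to 1805 in PG 1100 animals. The 6 dendritic cell markers summed to 279.4 to 297.1 CPM in ethanol animals and 694 to 888.8 at VEA 12.5, and to 231.4 to 328.9 in saline animals and 354.2 to 539 in PG 1100 animals. All 7 macrophage and 4 of 6 dendritic cell markers rose at VEA 12.5, as did 5 of 7 and 2 of 6 in PG 1100, where 5.48% and 4.09% of all genes rose. None of these or of the leukocyte markers was at 0 counts in any library. Of 8 T and NK cell markers and 6 neutrophil markers none was called at VEA 12.5, and of 6 B and plasma cell markers 1 rose. Endothelial markers fell in 3 of 6 cases at VEA 12.5 and in 5 of 6 in PG 1100, and club and ciliated cell markers in 4 of 5 and in 3 of 5, where 4.23% and 3.23% of all genes fell. In whole lung, a change in the number of cells of a type and a change in RNA per cell cannot be told apart, and the part of these markers in the proteasome values was not tested.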

How the data were processed

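The authors deposited 1 file of whole-number counts per gene symbol for each of 21 libraries, and per the labels' protocols 500 ng of RNA went into each Lexogen QuantSeq library. Bowtie2, bedtools and mm10 are named per the submitters' processing notes, with no versions, and the annotation and strand setting used for counting are not given in the sources used here. The 35 symbols on more than 1 of 23282 rows were summed. All 21 libraries were fitted in 1 model with a mean per group by edgeR 4.0.16 in R 4.3.3 (TMM, filterByExpr, robust quasi-likelihood, 14727 genes, 9 comparisons). Log2 fold changes and SE come from that model, with the SE taken as the absolute log2 fold change over the square root of F. Ratios of subunit pairs were tested by 6 exact permutation tests of the mean log2 ratio, adjusted by Benjamini-Hochberg. The members and gene lists were chosen with earlier results of these data known. Named were Psmb5 to Psmb10 and Psme1 and Psme2 always, the called members, and the 2 smallest p where none was called. The plan was to name up to 4 genes per list. That limit was kept only within each comparison, and Pdia3 and Irf9 were added beyond it after their values were seen. Positions come from GENCODE M21 (GRCm38). Alternatives were RLE scaling, DESeq2 1.42.0, limma-voom (limma 3.58.1), no filter, only the groups compared, leaving out Rn45s and haemoglobin, the 3 libraries with the fewest detected genes, or each animal in turn. Scripts were tested on simulated data. Animal numbers differ between groups, so nothing is paired. The labels give 1 number per library, taken as separate animals. The results of 1 further gene list are not reported here.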

Additional observations from a re-analysis of the deposited data

How the results depend on the processing

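Of 616 alternatives over 47 pairs of named member and comparison, 556 kept direction and side of the threshold, 32 lost the call, 11 gained it and 17 changed sign. The count at VEA 6.25 fell from 2 to 1 with RLE scaling, limma-voom, no filter, or without Rn45s and haemoglobin. In those fits 2.74% to 3.46% of all genes rose. The count fell to 0 without the 3 libraries of fewest detected genes (1.43% of all genes). In PG 1100 against saline it was 3 by DESeq2 (5.07% of all genes rose) and 1 without those libraries (3.32%). Against PG 826 it was 5 by DESeq2 (4.63%) and 0 in a fit of those groups alone (1.56%). At VEA 3.12 it was 2 by DESeq2 (4.48% of all genes rose), with no filter (3.39%) or in the groups alone (4.25%). At VEA 12.5 it was 9 in the groups alone (7.92%). Leaving out 1 animal gave counts of 0 to 1 for PG 826, 0 to 7 for PG 1100 against saline (7 without PG 1100 animal 27), 0 to 16 against PG 826 (16 without animal 27, 0 without animal 28), 1 to 2 at VEA 3.12, 0 to 2 at VEA 6.25 and 1 to 3 at VEA 12.5. In these fits 0.02% to 0.559% of all genes rose for PG 826 and 2.17% to 4.46% for PG 1100 against saline. Against PG 826 it was 0.844% to 4.83%. The VEA doses had 1.96% to 2.69%, 1.87% to 3.3% and 3.8% to 4.54%. The values that changed sign were small. Without the 3 libraries, log2 fold changes were 0.0215 (Psmb10) and 0.0588 (Psmb9) in PG 1100, and 0.0118 (Psmb10), 0.0017 (Psmb5), 0.0050 (Psmb8) and 0.1323 (Psmb9) in PG 826. Leaving out 1 animal gave -0.134 to 0.1147 (Psmb10) and -0.2496 to 0.0565 (Psmb9) in PG 1100, and -0.0922 to 0.0165 (Psmb10), -0.0965 to 0.0409 (Psmb8) and -0.3082 to 0.1559 (Psmb9) in PG 826. The log2 ratio of Psmb10 to Psmb7 in VEA was 0.0393 without the 3 libraries and -0.2331 to 0.0490 without 1 animal. The cause of these shifts was not tested. No paired analysis was possible because the groups share no animal numbers.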
